A study of Homo sapiens with 12 samples.

Results

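The genes described here are 10 Krüppel-like factors (KLFs) other than KLF1, the erythroid member: KLF2, KLF3, KLF4, KLF6, KLF9, KLF10, KLF11, KLF12, KLF13 and KLF16. They were taken by gene name from a table of 58735 genes, and each name occurred once. RNA was sequenced from K562, a human chronic myeloid leukemia line with the BCR-ABL1 fusion, in 12 libraries of 4 groups with 3 replicates each. All groups received the 0.1% DMSO vehicle. Mock DMSO cells received vehicle alone, mock nilotinib cells received 0.1 μM nilotinib, an inhibitor of the BCR-ABL1 kinase, hemin DMSO cells received vehicle and then 50 μM hemin for 24 h, and hemin nilotinib cells received nilotinib before the same hemin treatment. Hemin is an iron-containing porphyrin that drives K562 cells to make hemoglobin. The study asked how nilotinib bears on erythroid differentiation of these cells. K562 is 1 transformed line, so the replicates are separate samples of it and not separate donors. The methods have mock cells collected when hemin was added, whereas the drawn scheme has all cells collected at the end, so time in culture and hemin cannot be told apart in the comparisons of hemin with mock groups. How long mock nilotinib cells were in the drug is therefore unclear, and exposure to nilotinib may differ between the groups in nilotinib without hemin set against nilotinib with hemin, in hemin on top of nilotinib and in the interaction.

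KLFs are transcription factors with C2H2 zinc fingers at the carboxyl end that bind GC-rich and CACCC elements in promoters and enhancers. Their amino ends differ and set what each recruits. KLF2, KLF4 and KLF6 mostly activate transcription through acetyltransferases. KLF3 and KLF12 bind the corepressor CtBP. KLF9, KLF10, KLF11, KLF13 and KLF16 carry a domain that binds the SIN3 corepressor. In erythroid cells KLF1 drives globin and other red cell genes, KLF3 is one of its targets and competes for the same elements, and KLF2 acts on embryonic globin genes. KLF2, KLF4, KLF6 and KLF10 are also known as genes that respond quickly to growth factors, shear stress or TGF-beta.

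Total counts were 40418880 to 50506990 in mock DMSO, 33457078 to 36893606 in mock nilotinib, 36153691 to 41860655 in hemin DMSO and 35333809 to 40874699 in hemin nilotinib. Levels are given as CPM, counts per 1000000 after TMM scaling, and a gene was called changed at an adjusted p under 0.05 in the quasi-likelihood test of edgeR, with p adjusted by Benjamini and Hochberg's method over the 20821 genes with enough counts. Of the 10 KLFs, 9 were tested and KLF12 had too few counts. The hemin DMSO libraries stood apart: mitochondrially encoded genes took 1.45% to 2.88% of their counts against 5.20% to 8.83% in the other groups, and the 10 most abundant genes took 12.04% to 13.4% against 7.29% to 10.5%. The part of this difference in the KLF results was not tested. Leaving out the factors that correct for shifts in composition cannot decide it. In that setting no called KLF value changed sign, but single calls of KLF3, KLF6, KLF11 and KLF16 changed, as given below. The line expressed erythroid genes in every group, with 8 erythroid genes, among them GATA1, TAL1, HBG1 and TFRC, summing to between 985 and 6939 CPM.

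**Figure D1:**
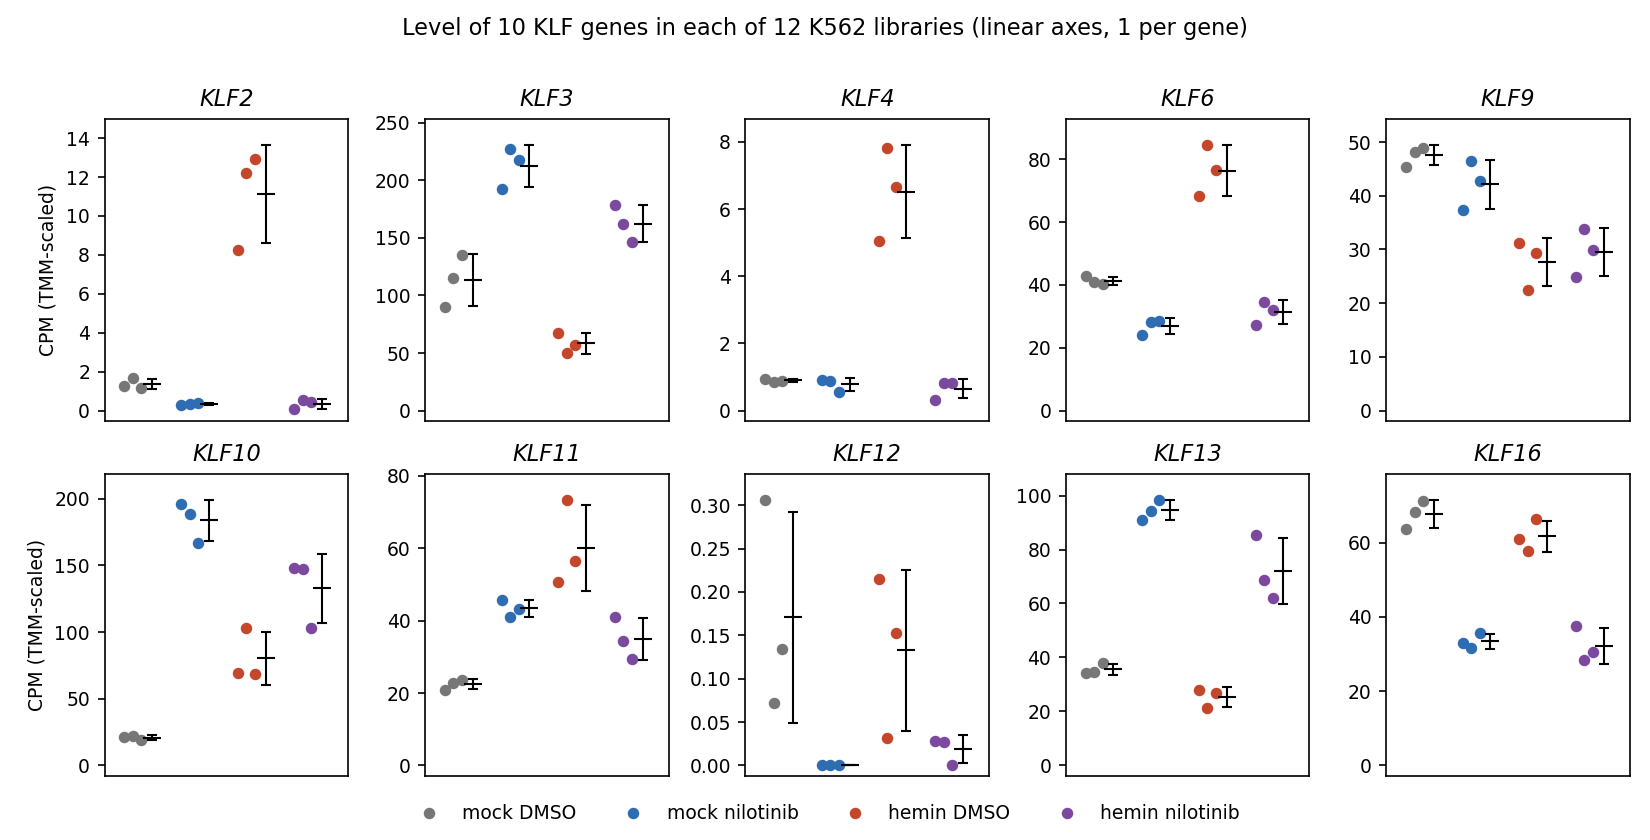
TMM-scaled CPM of each of the 10 KLF genes (linear vertical axis, 1 scale per gene) in the 12 libraries, coloured by group, with the mean and SD of the 3 libraries of a group beside the points. KLF2 and KLF4 are high only in the hemin DMSO libraries, at 8.27 CPM or more for KLF2, and KLF10 is above 60 CPM in every group but mock DMSO.

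Among the activators, KLF2, an endothelial and lymphocyte quiescence factor that is also active in erythroid precursors, had the widest range of any of the 9 tested KLFs. Its level was 1.28, 1.67 and 1.15 CPM in mock DMSO, 0.304, 0.321 and 0.404 CPM in mock nilotinib, 8.27, 12.2 and 12.9 CPM in hemin DMSO and 0.0575, 0.522 and 0.444 CPM in hemin nilotinib. The hemin DMSO libraries lay above all the others, mock DMSO lay between, and both nilotinib groups lay below with overlapping values. The first hemin nilotinib library held 2 counts, within the 3 counts that a count of 0 allows. KLF2 rose 8.16-fold with hemin in the absence of nilotinib (log2 fold change 3.03, SE 0.37, adjusted p = 5.34e-06). Under hemin it was 31.9-fold lower with nilotinib (log2 fold change -4.99, SE 0.43, adjusted p = 6.08e-08), and without hemin 3.95-fold lower (log2 fold change -1.98, SE 0.43, adjusted p = 0.00134). In bulk RNA, fewer cells with a transcript and less of it in each cell cannot be told apart, here and below.

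KLF4, one of the pluripotency factors and a regulator of monocyte differentiation, was a low-level gene in all groups except hemin DMSO. It had 0.953, 0.859 and 0.884 CPM in mock DMSO, 0.913, 0.875 and 0.548 CPM in mock nilotinib, 5.06, 7.82 and 6.67 CPM in hemin DMSO and 0.316, 0.824 and 0.818 CPM in hemin nilotinib. The 3 hemin DMSO values lay above the other 9, which overlapped between mock DMSO and mock nilotinib. KLF4 rose 7.22-fold with hemin (log2 fold change 2.85, SE 0.33, adjusted p = 3.19e-06) and was 9.86-fold lower with nilotinib under hemin (log2 fold change -3.30, SE 0.34, adjusted p = 5.13e-07). Without hemin the difference with nilotinib was -0.20 (SE 0.34, 95% interval -0.93 to 0.52, adjusted p = 0.659), so a decrease of the size seen for KLF2 lay outside the interval.

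KLF6, a widely expressed activator induced by injury and growth signals, was, like KLF2, highest in hemin DMSO and lower in both nilotinib groups than in mock DMSO, with smaller differences on the log2 scale. Its level was 42.7, 41.1 and 40.2 CPM in mock DMSO, 24.1, 28.3 and 28.4 CPM in mock nilotinib, 68.3, 84.4 and 76.5 CPM in hemin DMSO and 27.2, 34.7 and 32.0 CPM in hemin nilotinib. Mock DMSO, hemin DMSO and the nilotinib groups formed separate ranges, while the 2 nilotinib groups overlapped. KLF6 rose 1.85-fold with hemin (adjusted p = 3.70e-05), fell by 0.62 on the log2 scale with nilotinib without hemin (SE 0.13, adjusted p = 0.00124) and fell by 1.29 with nilotinib under hemin (SE 0.13, adjusted p = 4.69e-07).

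The promoters of KLF2 and KLF4 are shown because these genes varied together and shared the highest group. Both are RefSeq windows on GRCh38.p14 from 250 bases before to 50 after the transcription start, with matches to CCGCCC, the core of a GC box, and to CACCC in capitals on either strand. KLF2 lies on the plus strand (chr19:16324576-16324875) and KLF4 on the minus strand (chr9:107489720-107490019).
KLF2 promoter: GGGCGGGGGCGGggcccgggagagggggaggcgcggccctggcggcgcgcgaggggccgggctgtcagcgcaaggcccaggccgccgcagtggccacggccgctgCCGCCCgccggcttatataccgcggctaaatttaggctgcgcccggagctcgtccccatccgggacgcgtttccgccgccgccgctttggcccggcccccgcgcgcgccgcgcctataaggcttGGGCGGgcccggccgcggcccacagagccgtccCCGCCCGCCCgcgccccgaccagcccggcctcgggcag
KLF4 promoter: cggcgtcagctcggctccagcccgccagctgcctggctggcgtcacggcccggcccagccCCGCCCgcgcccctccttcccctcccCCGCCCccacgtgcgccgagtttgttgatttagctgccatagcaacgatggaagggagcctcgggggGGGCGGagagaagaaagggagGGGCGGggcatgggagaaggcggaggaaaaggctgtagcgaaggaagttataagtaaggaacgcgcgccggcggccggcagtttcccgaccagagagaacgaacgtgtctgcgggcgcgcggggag
The KLF2 window had 6 CCGCCC matches and the KLF4 window 4, and neither had a CACCC match. CCGCCC was found in 45.0% of the 35116 RefSeq promoters of this length and CACCC in 59.9%. The GC content was 80.7% for KLF2 and 69.0% for KLF4, against a median of 58.7% and a 90th percentile of 74.7% over all promoters. CTANNNNTA, a loose pattern for the site of MEF2 factors that allows any base at N, had 2 matches in KLF2 and none in KLF4. The 2 matches overlapped on opposite strands, at -120 to -112 and -119 to -111 from the transcription start, so they mark the same stretch. The pattern was not particular to KLF2. A KLF11 window had 2 matches, KLF12 windows had 2 and 1, and it occurred in 16.4% of all promoters. A match describes the letters of the window only.

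Of the CtBP-binding repressors, KLF3, which damps CACCC-driven genes in red cells, was highest in the nilotinib groups. Its level was 90.1, 115 and 135 CPM in mock DMSO, 192, 227 and 218 CPM in mock nilotinib, 67.6, 50.2 and 57.1 CPM in hemin DMSO and 179, 162 and 146 CPM in hemin nilotinib. No groups overlapped, and the order was the reverse of KLF6 in that hemin DMSO was lowest and mock nilotinib highest. KLF3 rose 1.87-fold with nilotinib without hemin (log2 fold change 0.91, SE 0.16, adjusted p = 2.14e-04) and 2.78-fold under hemin (1.48, SE 0.16, adjusted p = 7.65e-07). With hemin alone it fell by 0.96 on the log2 scale (SE 0.16, adjusted p = 9.40e-05). An antisense gene, KLF3-AS1, overlaps 4.22% of the exon length of KLF3, and since strand use in counting was not given in the sources used here, reads of that stretch cannot be told apart.

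KLF12, the other CtBP-binding member, was near the detection limit. Its counts were 17, 3 and 7 in mock DMSO, 7, 1 and 6 in hemin DMSO, 1, 1 and 0 in hemin nilotinib and 0 in each mock nilotinib library. A count of 0 allows up to 3 counts, which is 0.0761 to 0.0875 CPM in the mock nilotinib libraries. The values above that limit occurred in groups without nilotinib, and no test was made.

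**Figure D2:**
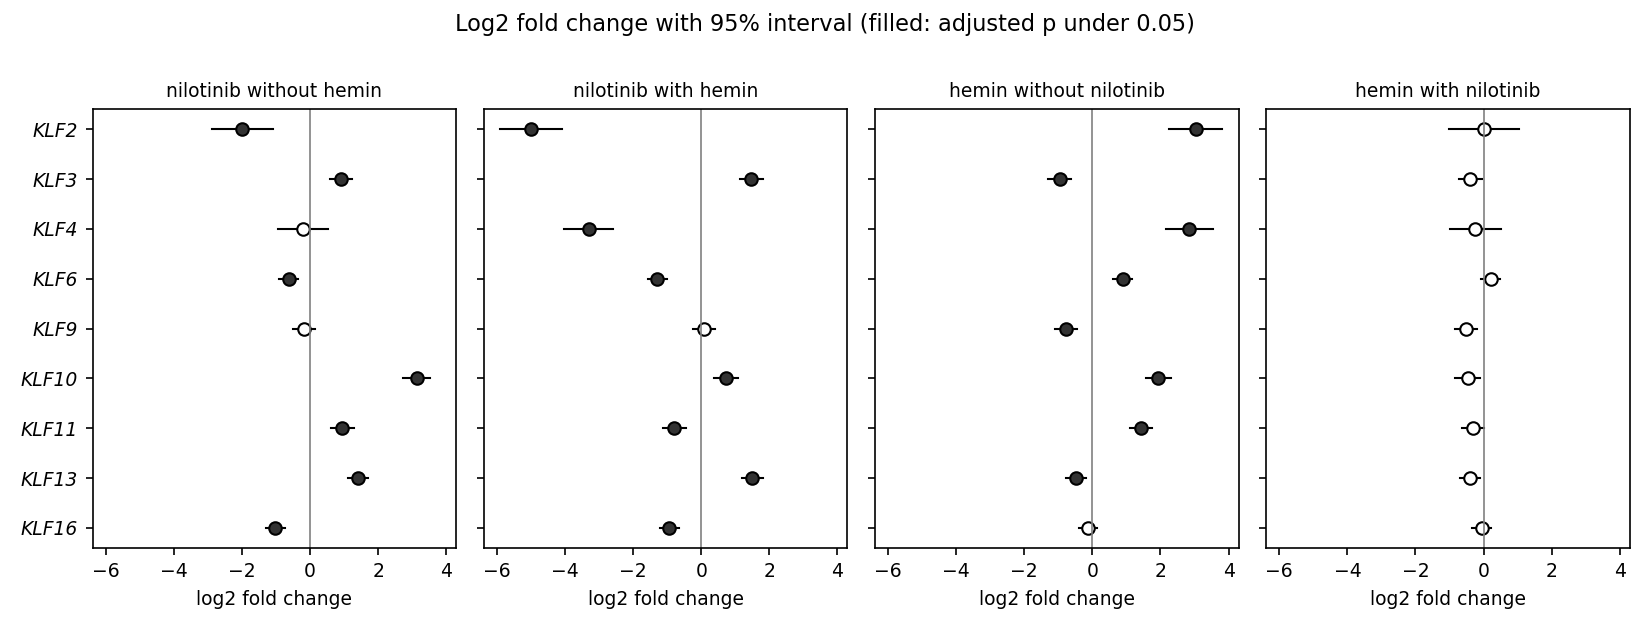
Log2 fold changes (horizontal axis) of the 9 tested KLFs in 4 comparisons, with points for the estimate, lines for its unadjusted 95% interval and filled points for an adjusted p under 0.05. In the hemin with nilotinib panel all 9 points are open and lie between -0.51 and 0.22, whereas KLF2 reaches -4.99 in the nilotinib with hemin panel.

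The SIN3-binding members did not move as 1 block. KLF10, first described as a TGF-beta-inducible early gene, had 21.6, 22.3 and 18.9 CPM in mock DMSO, 196, 188 and 167 CPM in mock nilotinib, 69.2, 103 and 68.7 CPM in hemin DMSO and 148, 147 and 103 CPM in hemin nilotinib. Every treated library lay above the 3 mock DMSO libraries, and the highest hemin DMSO value was just below the lowest hemin nilotinib value (103.06 against 103.17 CPM). KLF10 was 8.77-fold higher with nilotinib without hemin (log2 fold change 3.13, SE 0.19, adjusted p = 3.17e-09), the largest rise of the 9 KLFs in that comparison. It was 3.84-fold higher with hemin alone (1.94, SE 0.18, adjusted p = 3.16e-07) and 6.34-fold higher with both agents than with neither (2.66, SE 0.18, adjusted p = 1.31e-08). Under hemin the nilotinib difference was 1.65-fold (0.73, SE 0.17, adjusted p = 0.00157).

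KLF11, the close relative of KLF10 and also TGF-beta-inducible, differed from it in direction under hemin. Its level was 20.9, 22.6 and 23.7 CPM in mock DMSO, 45.8, 41.0 and 43.3 CPM in mock nilotinib, 50.6, 73.3 and 56.3 CPM in hemin DMSO and 41.0, 34.3 and 29.3 CPM in hemin nilotinib. All 9 treated libraries lay above mock DMSO, with hemin DMSO on top. KLF11 rose 1.94-fold with nilotinib without hemin (log2 fold change 0.95, SE 0.16, adjusted p = 1.21e-04) and 2.68-fold with hemin alone (1.42, SE 0.16, adjusted p = 2.03e-06), yet with nilotinib under hemin it fell by 0.79 on the log2 scale (SE 0.15, adjusted p = 3.36e-04). An antisense gene, AC104794.4, overlaps 9.07% of its exon length.

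KLF13, an activator of lymphocyte and heart genes that is expressed in erythroblasts, and KLF16, a GC-box binding factor first described in brain, moved in opposite directions with nilotinib. KLF13 had 34.1, 34.5 and 38.0 CPM in mock DMSO, 91.0, 94.4 and 98.3 CPM in mock nilotinib, 28.1, 21.3 and 26.7 CPM in hemin DMSO and 85.4, 68.5 and 61.9 CPM in hemin nilotinib. KLF16 had 63.7, 68.1 and 71.2 CPM in mock DMSO, 32.9, 31.7 and 35.7 CPM in mock nilotinib, 60.9, 57.8 and 66.2 CPM in hemin DMSO and 37.6, 28.3 and 30.5 CPM in hemin nilotinib. In both genes the 6 nilotinib libraries were separated from the 6 libraries without it. KLF13 rose 2.66-fold without hemin (log2 fold change 1.41, SE 0.14, adjusted p = 9.05e-07) and 2.84-fold under hemin (1.505, SE 0.14, adjusted p = 2.06e-07). KLF16 was 2.02-fold lower without hemin (-1.02, SE 0.13, adjusted p = 1.11e-05) and 1.92-fold lower under hemin (-0.94, SE 0.13, adjusted p = 1.07e-05). With hemin alone KLF13 fell by 0.49 (SE 0.14, adjusted p = 0.00848) and KLF16 gave -0.13 (SE 0.13, adjusted p = 0.395). Without composition factors the KLF16 value became -0.37 with an adjusted p of 0.0216, in a setting that shifted the median of all genes by -0.24. The antisense gene AC012615.3 overlaps 16.3% of the exon length of KLF16.

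KLF9, which is induced by glucocorticoid and thyroid hormones, had the smallest nilotinib differences of the 9 tested KLFs on the log2 scale. It had 45.4, 48.2 and 49.0 CPM in mock DMSO, 37.4, 46.4 and 42.7 CPM in mock nilotinib, 31.2, 22.5 and 29.3 CPM in hemin DMSO and 24.9, 33.8 and 29.9 CPM in hemin nilotinib. The mock libraries lay above the hemin libraries, and within each of these pairs the groups with and without nilotinib overlapped. With hemin alone KLF9 fell by 0.78 on the log2 scale (SE 0.15, adjusted p = 4.28e-04). The nilotinib differences were -0.17 without hemin (95% interval -0.49 to 0.15, adjusted p = 0.377) and 0.09 under hemin (95% interval -0.23 to 0.42, adjusted p = 0.600).

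The promoters of KLF11, KLF13 and KLF16 are shown because these SIN3-binding genes differed in direction, and capitals again mark CCGCCC and CACCC on either strand. KLF11 (chr2:10043971-10044270, plus strand, the downstream of its 2 RefSeq starts), KLF13 (chr15:31326585-31326884, plus strand) and KLF16 (chr19:1863530-1863829, minus strand) are on GRCh38.p14.
KLF11 promoter: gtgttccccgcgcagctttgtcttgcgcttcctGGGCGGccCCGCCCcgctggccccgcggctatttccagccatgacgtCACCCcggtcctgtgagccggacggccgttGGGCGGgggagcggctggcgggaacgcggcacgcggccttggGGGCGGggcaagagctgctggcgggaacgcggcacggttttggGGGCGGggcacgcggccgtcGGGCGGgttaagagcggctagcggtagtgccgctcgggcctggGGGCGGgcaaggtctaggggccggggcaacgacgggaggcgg
KLF13 promoter: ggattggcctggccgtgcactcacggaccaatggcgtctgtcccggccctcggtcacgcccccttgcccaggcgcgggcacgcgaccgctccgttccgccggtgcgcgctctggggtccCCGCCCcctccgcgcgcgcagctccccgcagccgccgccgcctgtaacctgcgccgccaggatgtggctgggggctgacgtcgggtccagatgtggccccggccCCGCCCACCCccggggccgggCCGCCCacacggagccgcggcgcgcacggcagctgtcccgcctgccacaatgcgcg
KLF16 promoter: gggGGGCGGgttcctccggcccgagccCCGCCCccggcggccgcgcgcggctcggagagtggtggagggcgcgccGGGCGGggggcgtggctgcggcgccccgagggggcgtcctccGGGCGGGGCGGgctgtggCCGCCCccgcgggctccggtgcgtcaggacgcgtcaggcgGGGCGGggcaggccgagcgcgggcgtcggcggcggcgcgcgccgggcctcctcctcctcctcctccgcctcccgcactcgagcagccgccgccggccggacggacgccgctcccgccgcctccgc
The CCGCCC matches numbered 7 in the KLF11 window shown, 3 in KLF13 and 7 in KLF16. The upstream KLF11 window, not shown, had 2, and no match to CACCC or TGACGTCA. The shown windows of KLF11 and KLF13 had 1 CACCC match each. In KLF13 it shared a base with a CCGCCC match, and in KLF11 it overlapped the single match to TGACGTCA, the full cyclic AMP response element, which occurred in 1.85% of all promoters. KLF16 had a GC content of 86.0%, the highest of the 12 windows used for 8 of the KLFs, and KLF9 had the lowest, at 32.7%. AGATAA, the core bound by GATA factors, occurred in 10.3% of all promoters and in 1 of the 12 windows, an upstream one of KLF12. TTCNNNGAA, the STAT core, occurred in 7.66% of all promoters and in 0 of the 12.

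By comparison, the calls were as follows. Nilotinib without hemin changed 7 of the 9 tested KLFs, 4 of them higher and 3 lower, where 42.5% of all tested genes were called, 20.7% higher and 21.8% lower. Nilotinib with hemin changed 8, with 3 higher and 5 lower, where 64.2% of all genes were called, 32.4% higher and 31.8% lower. Hemin without nilotinib changed 8, with 5 higher and 3 lower, where 53.6% of all genes were called, 25.7% higher and 27.8% lower. With these high background shares, the number of KLFs called says little, and the size and direction for each gene carry the description. The median log2 fold change of the 9 was -0.17, -0.79 and 0.89 in these comparisons, beside medians of 0.00, 0.02 and -0.05 over all genes. The comparisons share groups of libraries and are not independent of each other.

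Hemin on top of nilotinib moved the KLFs least. None of the 9 was called between hemin nilotinib and mock nilotinib in edgeR's quasi-likelihood test, 4 had an unadjusted p under 0.05, and 5.8% of all genes were called, 3.52% higher and 2.28% lower. The 4 were KLF3 (log2 fold change -0.39, adjusted p = 0.155), KLF9 (-0.51, adjusted p = 0.0566), KLF10 (-0.47, adjusted p = 0.119) and KLF13 (-0.39, adjusted p = 0.109). KLF3, KLF9, KLF10, KLF11 and KLF13 did not overlap between the groups, all being lower with hemin, where 23.3% of all tested genes did not overlap, 11.6% being lower and 11.7% higher. With the replicate number as a block, which treats libraries of the same number as pairs, KLF10 was called (-0.48, adjusted p = 0.0414). Whether they are pairs is not known. The block fitted to only these 6 libraries, decided after seeing the data, called KLF9 (-0.51, adjusted p = 0.0252) and KLF10 (-0.48, adjusted p = 0.0341). DESeq2 called KLF9 (-0.53, adjusted p = 0.0221), as did the fit over all genes with at least 1 count (-0.52, adjusted p = 0.0444), and limma-trend on the FPKM called 0. Without hemin nilotinib replicate 1, KLF10 (-0.56, adjusted p = 0.0488) and KLF13 (-0.54, adjusted p = 0.0155) were called. The 95% intervals for KLF2 (-1.01 to 1.05) and KLF4 (-0.9996 to 0.51) did not reach the rises of 3.03 and 2.85 that hemin gave without nilotinib.

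Set against each other, nilotinib alone and hemin alone differed in all 9 KLFs, 4 higher and 5 lower with nilotinib, where 65.8% of all genes were called, 32.5% higher and 33.4% lower. KLF2 was 32.3-fold and KLF4 8.32-fold higher with hemin, while KLF13 was 3.73-fold and KLF3 3.64-fold higher with nilotinib. KLF11 had the smallest difference (log2 fold change -0.47, adjusted p = 0.0131), which was not called without hemin DMSO replicate 2 (-0.30), mock nilotinib replicate 2 (-0.41) or mock nilotinib replicate 3 (-0.44), nor without composition factors (-0.25). With both agents against neither, 8 were called, 4 higher and 4 lower, where 46.6% of all genes were called, 24.2% higher and 22.4% lower. KLF10 (2.66) and KLF13 (1.02) rose most and KLF2 (-1.96) and KLF16 (-1.07) fell most on the log2 scale, and KLF4 gave -0.45 (adjusted p = 0.301). In that comparison KLF3 (0.52, adjusted p = 0.0126) was not called without mock DMSO replicate 1 (0.34) or hemin nilotinib replicate 2 (0.47), and KLF6 (-0.40, adjusted p = 0.0196) was not called without mock DMSO replicate 2 (-0.41) or hemin nilotinib replicate 1 (-0.32).

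**Figure D3:**
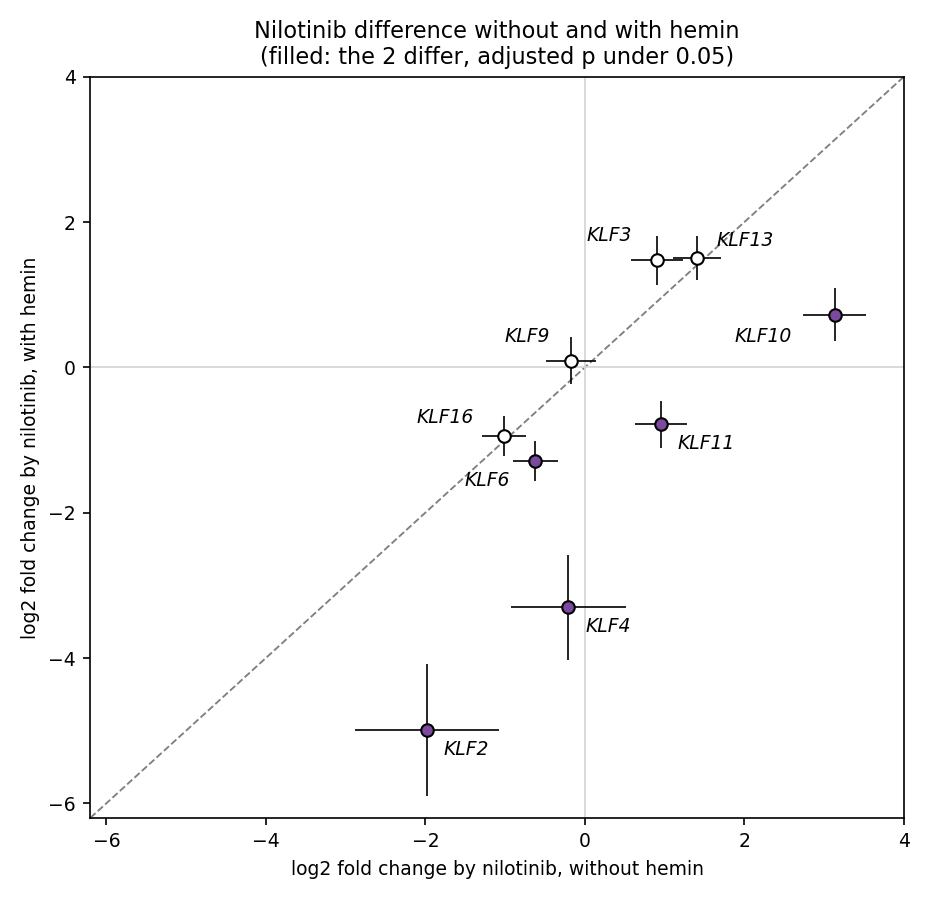
Log2 fold change by nilotinib without hemin (horizontal) and with hemin (vertical) for the 9 tested KLFs, with unadjusted 95% intervals and a dashed line of equality; filled points are those whose 2 values differ at an adjusted p under 0.05. KLF2, KLF4, KLF6, KLF10 and KLF11 are filled and lie below the line, and KLF11 is the only point at 0.95 on 1 axis and -0.79 on the other.

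Whether the nilotinib difference depended on hemin was tested as an interaction, the log2 fold change by nilotinib with hemin minus that without. It was called for 5 of the 9 KLFs, all negative, where 30.1% of all genes were called, 17.1% positive and 13.0% negative. The values were -3.10 for KLF4 (SE 0.48, adjusted p = 2.41e-04), -3.01 for KLF2 (SE 0.61, adjusted p = 0.00181), -2.41 for KLF10 (SE 0.25, adjusted p = 8.32e-06) and -1.74 for KLF11 (SE 0.22, adjusted p = 4.51e-05). These include different patterns: KLF2 and KLF4 were lower with nilotinib by more under hemin, KLF10 was higher by less, and KLF11 changed from higher to lower. KLF6 had the smallest called value (-0.67, SE 0.19, adjusted p = 0.0128), and it was not called without composition factors (-0.45), with all genes of at least 1 count (-0.60) or without mock nilotinib replicate 2 (-0.60). KLF3 gave 0.57 (SE 0.22, adjusted p = 0.0604) and was called without composition factors (0.77), with all genes of at least 1 count (0.64), and without mock DMSO replicate 1 (0.79), hemin DMSO replicate 1 (0.68) or hemin nilotinib replicate 3 (0.68). KLF13 (0.09, 95% interval -0.33 to 0.51), KLF16 (0.08, -0.31 to 0.46) and KLF9 (0.27, -0.18 to 0.72) were not called.

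Levels between genes were compared per kilobase of the gene length in the table. The sum over the 10 KLFs was 66.1 to 76.3 CPM per kilobase in mock DMSO, 122 to 127 in mock nilotinib, 85.3 to 97.8 in hemin DMSO and 83.7 to 105 in hemin nilotinib. In mock DMSO, KLF16 was the largest part, 32.0% of the group's sum, followed by KLF3 at 25.1%. With nilotinib, KLF10 took its place, at 37.2% without hemin and 34.5% with hemin, with KLF3 next at 27.3% and 26.8%. In hemin DMSO, KLF16 (22.9%) and KLF10 (22.0%) were nearly level, and their order differed between libraries. KLF2 and KLF4 together made 1.07% to 1.46% of the sum in mock DMSO, 6.43% to 9.12% in hemin DMSO and 0.109% to 0.530% in the 6 nilotinib libraries.

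**Figure D4:**
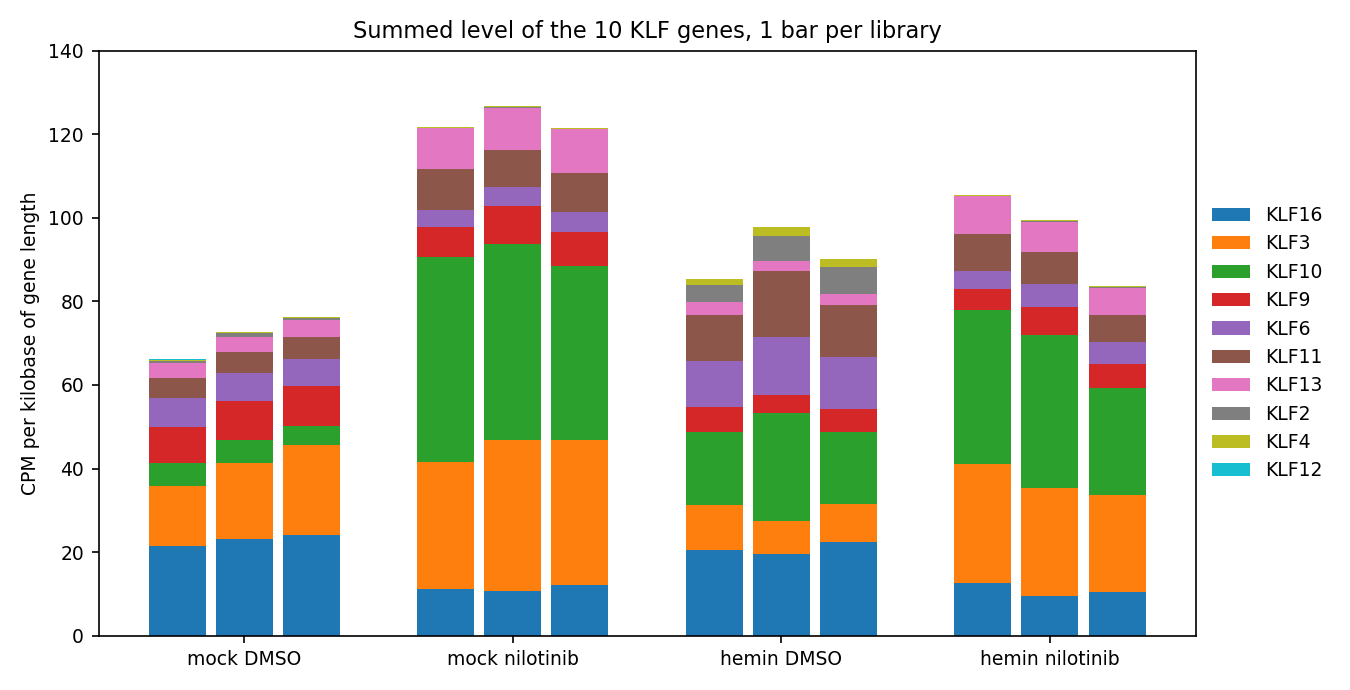
Stacked CPM per kilobase of gene length of the 10 KLFs, 1 bar for each of the 12 libraries in order of replicate within a group. The 3 mock nilotinib bars are highest, between 122 and 127, with KLF10 as the largest segment, and KLF2 and KLF4 form a visible segment in hemin DMSO.

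The order of the groups by mean level differed from gene to gene, and some neighbours in it did not differ beyond their spread. Hemin DMSO was highest for KLF2, KLF4, KLF6 and KLF11 and lowest for KLF3, KLF9 and KLF13. Mock nilotinib was highest for KLF3, KLF10 and KLF13. Mock DMSO was highest for KLF9 and KLF16 and lowest for KLF10 and KLF11. For KLF16 mock DMSO and hemin DMSO were neighbours whose libraries overlapped, as were the nilotinib groups, so that its 4 groups fell into a higher level without nilotinib and a lower level with it. For KLF9 the groups fell instead into a higher level without hemin and a lower level with it. Its step from mock nilotinib to hemin nilotinib had no overlap but was not called in edgeR's quasi-likelihood test (-0.51, adjusted p = 0.0566).

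Several gene lists around the KLFs were read for how many members passed the same test, beside 42.5% of all genes with nilotinib without hemin, 64.2% with nilotinib under hemin, 53.6% with hemin alone and 5.8% with hemin on top of nilotinib. Of 10 tested early-response genes, the class to which KLF2, KLF4, KLF6 and KLF10 belong, 8 rose and 0 fell with hemin alone, and with nilotinib 2 rose and 7 fell without hemin and 1 rose and 8 fell under it. The median log2 fold change of the list was 2.89 with hemin alone, where all genes had -0.05, and -3.11 with nilotinib under hemin, where all genes had 0.02. FOS, a subunit of the AP-1 factor, had a mean of 1.17 CPM in mock DMSO, 0.383 in mock nilotinib, 54.9 in hemin DMSO and 1.29 in hemin nilotinib. FOSB and ATF3 came next in size under hemin, with log2 fold changes of -5.30 and -3.70 with nilotinib. With hemin on top of nilotinib, 3 of the 10 rose and 0 fell.

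Among 8 genes of the MEK5-ERK5-MEF2 and FOXO routes that are known to act on KLF2 and KLF4, 3 rose and 1 fell with hemin alone, 3 rose and 1 fell with nilotinib without hemin, and 2 rose and 4 fell with nilotinib under hemin. MEF2D had 38.9 CPM in mock DMSO, 31.5 in mock nilotinib, 154 in hemin DMSO and 35.0 in hemin nilotinib, a log2 fold change of -2.13 with nilotinib under hemin (adjusted p = 6.42e-09). FOXO1 (-1.21) and MEF2A (-0.99) fell with it, whereas FOXO3 and FOXO4 were higher by mean level. FOXO3 had 104 CPM in hemin DMSO and 174 in hemin nilotinib, and FOXO4 had 59.4 and 112 CPM. Of 6 regulators of KLF protein turnover, 4 rose with hemin alone and 5 fell with nilotinib under hemin, where 0 rose, and 4 fell and 0 rose with nilotinib without hemin. These included the ubiquitin ligase subunit FBXW7 (-1.49) and the ligases SMURF2 (-1.43) and SMURF1 (-0.90) under hemin. With hemin on top of nilotinib edgeR and DESeq2 called 0 genes of either list, and an unadjusted p under 0.05 was reached by 1 gene of the first list and 0 of the second.

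The TGF-beta pathway, which induces KLF10 and KLF11, had 8 tested genes, and the counts were 2 higher and 4 lower with nilotinib without hemin, 2 and 3 with nilotinib under hemin, and 2 and 3 with hemin alone. With hemin on top of nilotinib edgeR and DESeq2 called 0, and 2 had an unadjusted p under 0.05. SMAD7, the inhibitory SMAD that is itself a target of the pathway, had 10.1 CPM in mock DMSO, 3.85 in mock nilotinib, 31.0 in hemin DMSO and 2.60 in hemin nilotinib. SMAD7 was lower in mock nilotinib than in mock DMSO (log2 fold change -1.39, adjusted p = 1.61e-04), a comparison in which KLF10 was 8.77-fold higher. Between mock DMSO and hemin DMSO the mean of SMAD7 was higher with hemin, as were those of KLF10 and KLF11. SKIL, a SMAD corepressor, gave -1.17 and SMAD4, the common SMAD, 1.16 with nilotinib under hemin. Without hemin the means of both were higher with nilotinib. SKIL had 33.6 CPM in mock DMSO and 48.8 in mock nilotinib, and SMAD4 58.3 and 88.3 CPM. The part of the pathway in the KLF10 and KLF11 values was not tested. The receptor TGFBR2 was low throughout, with a mean of at most 0.448 CPM.

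For KLF9, 5 glucocorticoid-response genes were tested, of which 3 fell with nilotinib without hemin, 4 fell with nilotinib under hemin, 1 rose with hemin alone and 1 fell with hemin on top of nilotinib. SGK1 (-1.73), TSC22D3 (-1.57) and PER1 (-0.92) were lower with nilotinib under hemin, a comparison in which KLF9 gave 0.09. FKBP5, a more abundant gene of the list, had a mean of 139 CPM in hemin DMSO and 144 in hemin nilotinib. Of 14 corepressors and coactivators that KLFs bind, 4 rose and 1 fell with nilotinib without hemin, 3 rose and 2 fell with nilotinib under hemin, 3 rose and 5 fell with hemin alone and 1 fell with hemin on top of nilotinib. The acetyltransferase KAT2B (2.05) and CTBP1 (0.98), the partner of KLF3, rose and FHL3 (-0.67), a KLF3 cofactor, fell with nilotinib under hemin.

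Textbook targets of KLF2, KLF3, KLF4 and KLF6 gave 9 tested genes, of which 4 rose and 2 fell with hemin alone, 1 rose and 4 fell with nilotinib without hemin, and 1 rose and 5 fell with nilotinib under hemin. With hemin on top of nilotinib edgeR called 0, 2 had an unadjusted p under 0.05 and DESeq2 called 1. CDKN1A, the cell cycle inhibitor p21 that KLF4 and KLF6 are known to induce, had 27.7 CPM in mock DMSO, 13.8 in mock nilotinib, 356 in hemin DMSO and 17.9 in hemin nilotinib. CCND1 (-3.43), which KLF4 is known to repress, fell in the same comparison, as did S1PR1 (-2.51), a KLF2 target in lymphocytes. The erythroid list, whose gene EPOR the study picked from these libraries, had 7 of 8 genes higher with nilotinib without hemin, 8 of 8 under hemin, and 2 higher and 4 lower with hemin alone. With hemin on top of nilotinib edgeR and DESeq2 called 0 and 2 had an unadjusted p under 0.05. EPOR (4.35), LMO2 (3.41) and TAL1 (3.06) rose most under hemin.

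Beside the 64.2% of all genes called with nilotinib under hemin, the share called was close for the TGF-beta pathway (5 of 8) and the textbook targets (6 of 9), so these counts are no result about those lists, and it was lower for the corepressors and coactivators (5 of 14). The counts of the MEK5-ERK5-MEF2 and FOXO genes were near the shares of all genes too, and are no result about that list. The medians of the lists in nilotinib under hemin, beside 0.02 over all genes, were -0.56 for the MEK5-ERK5-MEF2 and FOXO genes, -0.89 for the turnover regulators, -0.37 for the TGF-beta pathway, -0.92 for the glucocorticoid-response genes, 0.11 for the corepressors and coactivators, -0.99 for the textbook targets and 2.39 for the erythroid genes. With hemin alone, beside -0.05 over all genes, they were 0.28, 0.56, -0.25, -0.12, 0.00, 0.10 and -0.88 in that order.

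Markers of other blood and vessel cells that express KLFs moved in some of the same comparisons, and their part in the KLF results was not tested. Of 9 monocyte and granulocyte markers, 6 were tested. With nilotinib 4 fell without hemin and 6 fell under it, 2 rose and 3 fell with hemin alone, and 1 fell with hemin on top of nilotinib. In the same order 42.5%, 64.2%, 53.6% and 5.8% of all genes were called. CD14 (-4.07), CSF3R (-3.73) and LYZ (-3.37) changed most under hemin. The list summed to 118 to 134 CPM in mock DMSO, 18.7 to 21.2 in mock nilotinib, 94.2 to 121 in hemin DMSO and 10.5 to 14.9 in hemin nilotinib. FCN1 had 0 counts in every library, and the granule genes MPO and ELANE had means of at most 0.174 and 0.163 CPM. Other markers of the list were not near 0 in hemin DMSO, where SPI1 had a mean of 59.8, LYZ 24.7, CD14 9.40 and CSF3R 6.38 CPM. Between mock DMSO and hemin DMSO the ranges of the sum overlapped. CD14 rose from a mean of 0.497 to 9.40 CPM and CSF1R from 0.204 to 1.70 CPM, in a comparison in which KLF2 and KLF4 rose. Of the 6 tested markers 3 were lower in that comparison, and the median log2 fold change of the 6 was -0.33.

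Of 9 lymphoid markers, 5 were tested, with 2 lower with nilotinib without hemin, 2 lower under hemin, among them CD3D (-6.53), and 2 higher with hemin alone. The shares of all genes just given also stand beside these counts and those of the markers that follow. With hemin on top of nilotinib edgeR and DESeq2 called 0, and 0 had an unadjusted p under 0.05. The list summed to 9.53 to 20.1 CPM in mock DMSO, 3.03 to 3.37 in mock nilotinib, 20.3 to 28.4 in hemin DMSO and 2.21 to 7.62 in hemin nilotinib, and MS4A1 had at most 1 count in any library. Of 7 megakaryocyte markers, 4 were tested, with 2 higher and 1 lower with nilotinib without hemin, 2 and 2 under hemin, 1 and 1 with hemin alone and 1 lower with hemin on top of nilotinib. With nilotinib under hemin ITGB3 rose (2.12) and ITGA2B fell (-2.09), PF4 had at most 2 counts, and the sums were 40.1 to 66.0, 26.6 to 37.1, 34.8 to 74.9 and 15.4 to 25.0 CPM in mock DMSO, mock nilotinib, hemin DMSO and lastly hemin nilotinib. Of 5 endothelial markers only ESAM was tested, which was lower with nilotinib under hemin (-2.18), higher with hemin alone (1.11) and not called with nilotinib without hemin (-0.11) or with hemin on top of nilotinib (-0.97, unadjusted p under 0.05, and called by DESeq2). The sums were 1.67 to 3.45, 1.93 to 2.91, 4.29 to 7.05 and 0.805 to 1.73 CPM in the same order, and CDH5 had 0 counts in every library.

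Among relatives outside the 10, KLF1 had 284 ± 55.3 CPM (SD, n = 3) in mock DMSO, 733 ± 45.4 in mock nilotinib, 24.0 ± 2.01 in hemin DMSO and 630 ± 112 in hemin nilotinib. KLF3, a known KLF1 target, and KLF13 both had their groups in the same order by mean level. So did SP5, SP6, SMAD4 and KAT2B, so the order is not particular to these KLFs. How many of all genes have it was not counted, and the part of KLF1 in it was not tested. Of 13 tested KLF1, KLF5, KLF7, KLF15, KLF17 and SP genes, 3 rose and 2 fell with nilotinib without hemin, 5 rose and 5 fell under hemin, 5 rose and 6 fell with hemin alone and 1 fell with hemin on top of nilotinib. In the same order 42.5%, 64.2%, 53.6% and 5.8% of all genes were called. KLF15 had 7.62 ± 3.01 CPM in mock DMSO, 0.233 ± 0.0980 in mock nilotinib, 1.99 ± 0.732 in hemin DMSO and 0.428 ± 0.0485 in hemin nilotinib. KLF7 had its groups in the same order by mean as KLF2, with 0.951 ± 0.0611, 0.336 ± 0.0779, 1.95 ± 0.279 and 0.191 ± 0.0705 CPM in the order used above. SP1, the widely expressed GC-box factor, ranged only from 149 ± 21.8 CPM in hemin DMSO to 193 ± 7.66 CPM in mock DMSO. KLF8 and KLF14 had means of at most 0.114 CPM.

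The genes whose levels were most like those of a KLF were found by Pearson's r of log2 CPM over the 12 libraries among 9445 genes with a mean of at least 10 CPM, for the 8 KLFs above 1 CPM with a range over 2-fold. The points share libraries that fall into 4 groups, so many genes reach high values, and r is given as a description. The closest were SNAP23 (0.986), TFE3 (0.980) and BEX2 (0.979) for KLF2, and SCNM1 (0.980), MED30 (0.974) and JUN (0.974) for KLF4. SEC61G (0.991), CHST11 (0.991) and PELI1 (0.988) were closest to KLF6. For KLF3 they were SMAD4 (0.990), CXXC5 (0.987) and ZNF592 (0.986), and for KLF13 KANK2 (0.990), ARRDC2 (0.988) and RAB6B (0.987). DAAM1 (0.985), PKDCC (0.973) and IFI35 (0.966) were closest to KLF10, and ZNF211 (0.956), AC007969.1 (0.954) and COMMD9 (0.953) to KLF11. PHACTR4 (0.980), PLA2G15 (0.980) and EHD2 (0.979) were closest to KLF16. KLF11 had the lowest best match of the 8.

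The 10 genes lie apart from each other on GRCh38 in GENCODE 29, apart from a shared chromosome for KLF2 and KLF16 and for KLF4 and KLF9, and none shared a 150-base stretch with a transcript of another gene. KLF2 (ENSG00000127528) spans chr19:16324817-16327874, KLF3 (ENSG00000109787) chr4:38664196-38701042, KLF4 (ENSG00000136826) chr9:107484852-107490482 and KLF6 (ENSG00000067082) chr10:3775996-3785281. KLF9 (ENSG00000119138) spans chr9:70384597-70414624, KLF10 (ENSG00000155090) chr8:102648779-102655902, KLF11 (ENSG00000172059) chr2:10042849-10054836 and KLF12 (ENSG00000118922) chr13:73686089-73995056. KLF13 (ENSG00000169926) spans chr15:31326855-31435665 and KLF16 (ENSG00000129911) chr19:1852399-1863568. All are protein-coding, and counts cover their exons.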

How the data were processed

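RNA of 12 K562 libraries was sequenced as 150-base paired-end reads by the authors' sequencing service. The authors deposited raw read counts per gene, without normalization, and FPKM per gene, which are scaled by size factors of the 12 libraries rather than by library totals. The submitters' processing notes name GRCh38.p12 and DESeq2; the aligner, counter and strand setting were not given in the sources used here. A table of group means of FPKM was not used here.

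The counts entered edgeR 4.0.16 under R 4.3.3 (filterByExpr with minimum count 10 and minimum total count 15, TMM, quasi-likelihood fit with 1 mean per group over 12 libraries). All p are two-sided, with Benjamini-Hochberg adjustment over 20821 genes in each of 6 pairwise comparisons and the interaction. An exact permutation test of 3 against 3 libraries cannot go below 0.1 and was not used for single genes. Values after ± are SD, n = 3, and p-values measure the spread between samples of 1 line. Intervals are 95%. Floors of 3 counts cover counting error only.

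The KLFs and the 13 gene lists (early-response genes; MEK5-ERK5-MEF2 and FOXO regulators; regulators of KLF protein turnover; TGF-beta pathway; glucocorticoid-response genes; corepressors and coactivators; textbook targets; other KLF and SP factors; erythroid, monocyte and granulocyte, lymphoid, megakaryocyte and endothelial markers) were chosen with earlier results of these data known. Outside the KLFs, up to 3 genes per list are named, those with the largest log2 fold change among the called in nilotinib with hemin, besides relatives by level, likeness matches (log2 CPM with prior count 2), marker genes near 0, and TGFBR2, SPI1, CSF1R, FOXO3, FOXO4 and FKBP5, which were chosen after their values were seen. Some list genes that this rule would name are not reported here.

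Alternatives changed 1 choice at a time, except that the replicate block was also fitted to 6 libraries alone: DESeq2 1.42.0, RLE factors, no composition factors, every gene with 1 count or more, limma 3.58.1 (limma-trend) on FPKM after log2 with 1 or with 0.1 added, the 6 libraries alone, a replicate block, and omission of each single library. The labels give the replicate numbers. Group-centred values of libraries with the same number correlated above 0.1 in every pair only for mock nilotinib with hemin nilotinib (0.199 to 0.263). The numbers may therefore pair those libraries, but the correlations are weak. Hemin DMSO with hemin nilotinib gave 0.235 for replicate 3 and -0.0071 for replicate 1. Replicate libraries differed by more than sampling noise. The procedure was tested on simulated data with known changes. Positions came from GENCODE 29 and promoters from RefSeq. Windows of 8 of the KLFs were used, and promoters on the chromosome of KLF10 were left out. Figures and annotation used Python 3.11.15.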

Additional observations from a re-analysis of the deposited data

Results flagged for a closer look

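The log2 fold change by nilotinib differed between cells with and without hemin for 5 KLFs, by a test of the difference itself (edgeR's quasi-likelihood interaction with Benjamini-Hochberg adjustment over all genes). Of all tested genes 30.1% were called in that test, 17.1% positive and 13.0% negative. Exposure to nilotinib may differ between the mock and hemin groups, which cannot be told apart from hemin here. The value with hemin minus that without was -3.01 for KLF2, -3.10 for KLF4, -0.67 for KLF6, -2.41 for KLF10 and -1.74 for KLF11. KLF6 was not called without composition factors, with all genes of at least 1 count or without mock nilotinib replicate 2. KLF11 is the case where both single values passed the test with opposite signs, 0.95 without hemin and -0.79 with it. Groups of 3 libraries are too small for a check of single outlying libraries.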

How the results depend on the processing

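Of 936 alternative values for single KLFs, 895 kept their direction and their side of the threshold, 11 were no longer called, 13 became called and 17 that were uncalled in both settings changed sign. No called value reversed. Between hemin nilotinib and mock nilotinib, where 0 KLFs were called, DESeq2 called 1, all genes with at least 1 count 1, the replicate block 1, and the replicate block in the 6 libraries alone 2, a setting chosen after the data were seen. Leaving out 1 library gave 0 to 2. The block, which treats libraries of the same number as pairs, changed no other call. The cause of these changes was not tested. Counts of called KLFs in the other comparisons stayed within 1.5 times under every alternative run, except that 1 positive interaction, KLF3, was called under 5 alternatives against 0.

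The sign changes were all in values uncalled in both settings, and not all of these were close to 0. For hemin with nilotinib, KLF2 gave -0.0062 without composition factors, -0.0087 on log2(FPKM + 1) and -0.142 on log2(FPKM + 0.1). It gave -0.0516 with the replicate block, -0.157 with that block in 6 libraries, and -0.408 to 0.487 without 1 library. In the same comparison without 1 library, KLF4 gave -0.470 to 0.0694 and KLF16 -0.188 to 0.0032. For nilotinib with hemin, KLF9 gave -0.0297 to 0.216 without 1 library. In the interaction, KLF13 gave -0.0222 on log2(FPKM + 1). Without 1 library the interaction was -0.0331 to 0.235 for KLF13 and -0.0363 to 0.198 for KLF16. Without composition factors the median of all genes moved by 0.18 in nilotinib with hemin, -0.24 in hemin without nilotinib and 0.21 in the interaction. Depth limits KLF12, KLF2 and KLF4, whose nilotinib libraries hold few counts.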
